A study of Mus musculus with 10 samples.

Results

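Z-disc structural genes, the alpha-actinins and their binding partners, were examined in mouse heart muscle cells that carried a dominant-negative form of the coactivator MKL1. The genes were chosen by symbol from the deposited table. All 10 (Actn1, Actn2, Actn4, Ldb3, Myoz2, Csrp3, Nexn, Nebl, Pdlim5 and Pdlim7) were found among its 23337 genes. All 10 had an adjusted p-value, as did 14056 genes in all.

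The cells were cardiomyocytes of wild-type mice, 5 libraries from mice given AAV9-cTNT-GFP and 5 from mice given AAV9-cTNT-dnMKL1-GFP. Both groups received the virus on postnatal day 1, at 500000000 vg per gram, and their cells were collected on postnatal day 14 by collagenase perfusion of the heart and fluorescence-activated sorting. Both groups therefore carried AAV9 and GFP, and the cTNT promoter, which is active in heart muscle, drove both vectors. The gate used in sorting and the sex of the mice are not given in the sources used here. The labels call the libraries of a group biological replicates.

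The Z-disc is the border of the sarcomere, the contractile unit of striated muscle. Actin filaments of neighbouring sarcomeres are anchored there by alpha-actinin, which cross-links them and binds titin. Around this lattice sit adaptor proteins that carry LIM and PDZ domains, hold the disc together under load and tie it to signalling. MKL1, also called MRTF-A, shuttles into the nucleus when free actin is low and activates serum response factor (SRF), which binds a DNA element called the CArG box. Many genes of the actin cytoskeleton and the sarcomere are known SRF targets, so the comparison asks how such genes respond when MKL1 function is disturbed.

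The deposited file is a comparison made by the authors, without values per library, so each gene has a mean over all libraries (its base mean, in normalized counts), a log2 fold change and its standard error (SE). A gene is said to have risen, fallen or changed where its Benjamini-Hochberg adjusted Wald p-value in the authors' deposited table was under 0.05. The means of the GFP and dnMKL1 groups given below follow from these columns and are called implied means. They have no SD of their own, and the spread between libraries is carried by the SE. Whether the values of single libraries of the 2 groups overlapped cannot be read from these numbers.

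The headers do not state which group is the numerator. It was read from Mkl1, the source of the dnMKL1 sequence in the vector, with a log2 fold change of 9.80 in the authors' deposited table, so that positive values stand for higher expression in dnMKL1. Depth was alike in both groups, with estimated totals of 8802947 to 17123060 counts for GFP and 8835151 to 17228265 for dnMKL1. The table called 34.1% of the tested genes, 16.6% higher and 17.4% lower. Genes whose base mean reached 1000 are called abundant here, and 55.8% of those tested were called, 13.7% higher and 42.1% lower. The median log2 fold change was 0.02 over all tested genes and -0.15 over abundant genes.

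Of the 7 cardiomyocyte markers, 7 were well expressed, with base means from 10438 for Ryr2 to 594986 for Myh6 in the authors' deposited table. Of these, 5 fell and 0 rose. Among all 140 tested genes at base means of 10000 and above, where these markers lie, 99 fell and 5 rose. Those that rose include Mkl1, whose sequence the dnMKL1 vector carried and whose implied mean in GFP was 83.9. Fewer cardiomyocytes in a library and less RNA of these genes per cell cannot be told apart in bulk samples.

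Of the 10 genes, 1 rose and 4 fell. Actn1 rose, and Ldb3, Nexn, Pdlim5 and Pdlim7 fell. Actn2, Actn4, Csrp3, Myoz2 and Nebl did not pass the threshold. The count of 5 called in 10 stands beside 34.1% of all tested genes and 55.8% of the abundant ones, a class that holds 8 of the 10. The median log2 fold change of the 10 genes was -0.22, or 0.07 with equal summed totals (a scaling described below), with a range from -0.86 to 1.02. The genes did not move as a block.

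**Figure D1:**
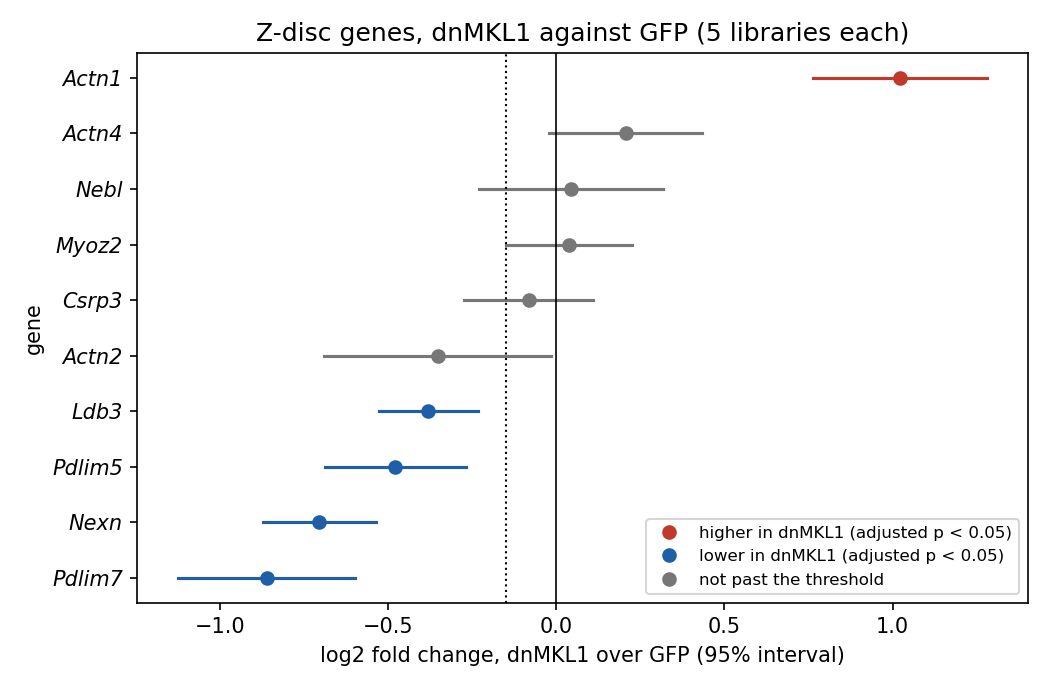
Log2 fold change (horizontal axis, dnMKL1 over GFP) of the 10 Z-disc genes (vertical axis), with points for the deposited values and bars for 95% intervals computed from the SE, 5 libraries in each group. Actn1 stands alone on the right at 1.02, Ldb3, Pdlim5, Nexn and Pdlim7 lie between -0.38 and -0.86, and the dotted line marks the median of -0.15 over abundant genes, those with base means from 1000 up.

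Sequence before the transcription start is shown for 4 of the genes. Ldb3 and Nebl are shown because a window at an annotated start holds a CArG box. Actn1 is shown because it rose most among the 10 genes, and Pdlim7 because it fell most. Each run gives the 250 bases before a start, 5′ to 3′ on the gene's strand, from RefSeq on GRCm38.p6, with the CArG box in capitals. All 4 genes lie on the minus strand. The start used for Nebl lies inside the gene's GENCODE span (chr2:17343909-17731464), not at its 5′ end. The run before it ends in cag, as many introns do. Whether this stretch of Nebl acts as a promoter was not tested. The windows are chr14:34588682-34588931 for Ldb3, chr2:17462857-17463106 for one of the starts of Nebl, chr12:80260364-80260613 for Actn1 and chr13:55513447-55513696 for Pdlim7.
Ldb3: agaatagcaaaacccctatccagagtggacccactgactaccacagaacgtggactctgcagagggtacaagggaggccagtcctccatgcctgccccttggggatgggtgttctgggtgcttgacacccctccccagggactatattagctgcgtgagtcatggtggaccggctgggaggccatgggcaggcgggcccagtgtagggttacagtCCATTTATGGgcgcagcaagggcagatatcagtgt
Nebl: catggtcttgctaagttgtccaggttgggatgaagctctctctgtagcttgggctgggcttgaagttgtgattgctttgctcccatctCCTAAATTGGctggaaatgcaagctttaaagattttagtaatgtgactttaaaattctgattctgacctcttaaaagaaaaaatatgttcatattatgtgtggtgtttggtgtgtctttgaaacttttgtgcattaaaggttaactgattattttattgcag
Actn1: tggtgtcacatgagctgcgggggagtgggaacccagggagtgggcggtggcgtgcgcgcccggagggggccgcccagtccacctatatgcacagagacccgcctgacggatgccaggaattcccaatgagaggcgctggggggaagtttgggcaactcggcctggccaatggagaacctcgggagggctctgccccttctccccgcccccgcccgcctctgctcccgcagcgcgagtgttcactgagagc
Pdlim7: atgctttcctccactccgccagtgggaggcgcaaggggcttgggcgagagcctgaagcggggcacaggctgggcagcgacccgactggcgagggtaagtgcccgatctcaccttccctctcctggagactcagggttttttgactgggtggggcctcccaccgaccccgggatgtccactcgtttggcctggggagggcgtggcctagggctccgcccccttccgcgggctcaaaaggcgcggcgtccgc

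The search covered windows of 300 bases, from 250 before to 50 after each start, on both strands. It found windows for 9 of the 10 genes, 15 windows in all. The CArG box was matched in 3 of these 15 windows and in 1.63% of all 32851 windows of the RefSeq set. Ldb3 has a pair of annotated starts that share one match, CCATTTATGG, whose bases lie at -35 to -26 from one start and at -109 to -100 from the other. In Nebl the match is CCTAAATTGG, at -162 to -153 from the start inside the gene. The MEF2 site, the element of another muscle transcription factor, was matched only in Myoz2 among the 9 genes, as CTATATATAG at -33 to -24, and in 3.19% of all windows. That stretch overlaps the place where a TATA box usually lies. These matches are letters in a window and were not tied to binding. Of the genes with a CArG match, Ldb3 fell and Nebl did not pass the threshold.

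Actn1 and Actn4 encode the alpha-actinins of non-muscle cells, which cross-link actin in stress fibres and at adhesions, and Actn2 encodes the alpha-actinin of the cardiac Z-disc. Actn1 (chr12:80167547-80260371 in GENCODE on GRCm38) had implied means of 150 in GFP and 304 in dnMKL1, in normalized counts. This was a 2.03-fold rise, and the authors' deposited table gave a log2 fold change of 1.02 (SE 0.13) with an adjusted p of 4.98e-13. Actn1 was the least abundant of the 10 genes, so its rise concerns a small pool of transcripts.

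Actn2 (chr13:12269426-12340760) was the most abundant of the 10, with implied means of 61300.1 normalized counts in GFP and 48024.8 in dnMKL1. The authors' deposited table gave a log2 fold change of -0.35 (SE 0.17), with an unadjusted p of 0.0405 and an adjusted p of 0.102. Its 95% interval ran from -0.69 to -0.015, so both a sizeable loss and almost none lie inside it. Actn4 (chr7:28893248-28962340) had implied means of 1952 and 2252 normalized counts. For Actn4 the authors' deposited table gave 0.21 (SE 0.12, adjusted p = 0.168).

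Ratios within the family do not depend on how the libraries were scaled. Per kilobase of exon, the implied mean of Actn2 was 598 times that of Actn1 in GFP and 231 times in dnMKL1. Actn1 made up 0.164% of the family's summed level per kilobase in GFP and 0.420% in dnMKL1, Actn4 1.93% and 2.81%, and Actn2 97.9% and 96.8%. Actn2 thus remained by far the main alpha-actinin transcript in both groups. The log2 fold change of Actn1 minus that of Actn2 was 1.37, a difference that could not be tested without values per library. Actn3, the alpha-actinin of fast skeletal muscle, had a base mean of 1.26 in the authors' deposited table and no adjusted p-value.

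Actn1 is also expressed by other cells of the heart, so markers of those cells were examined. Of 8 fibroblast markers, 3 rose and 0 fell, beside 16.6% of all tested genes higher and 17.4% lower. With equal summed totals 6 were higher and 0 lower, beside 40.4% and 6.60% of all tested genes. The summed implied means of the fibroblast markers were 3539 normalized counts in GFP and 4913 in dnMKL1. Of 8 mural markers (pericytes and smooth muscle), 3 rose and 1 fell, with sums of 11922 and 8174. Those that rose were Cspg4, a proteoglycan of pericytes, at 2.01 (SE 0.18), and the smooth muscle genes Myh11 at 0.73 (SE 0.20) and Tagln at 0.72 (SE 0.18) in the authors' deposited table. Acta2, the smooth muscle actin that fetal cardiomyocytes also express, was the one that fell and the most abundant of these, with a log2 fold change of -1.06 (SE 0.25) and a base mean of 7726 in the authors' deposited table. Without Acta2 the sums were 1468 in GFP and 3176 in dnMKL1, of which Cspg4 alone held 501 and 2019. All 7 remaining markers had positive log2 fold changes. Not past the threshold were Notch3 (0.45, SE 0.20), Pdgfrb (0.18, SE 0.24), Kcnj8 (0.03, SE 0.30) and Rgs5 (0.01, SE 0.31) in the authors' deposited table. With equal summed totals 4 of the 8 mural markers were higher and 1 lower. None of 7 endothelial markers was called, with sums of 2533 and 2628 and 0 of them at an unadjusted p under 0.05. Their SEs were wide, from 0.25 for Flt1 to 0.35 for Emcn. Against the median SE of genes like them in base mean, the ratio ran from 1.56 for Flt1 to 2.94 for Kdr. A sizeable shift of these markers could have gone unseen. Of 6 macrophage markers, 1 rose and 0 fell, with sums of 143 and 127, and equal summed totals gave the same counts. None of these markers was listed at 0. The part of other cells in the rise of Actn1 was not tested.

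Nexn encodes nexilin, an actin-binding protein of the Z-disc that is also found at the junction of T-tubule and sarcoplasmic reticulum. Nexn (chr3:152236982-152266350) had implied means of 4946 normalized counts in GFP and 3036 in dnMKL1, so that it fell by 38.6%. The authors' deposited table gave a log2 fold change of -0.70 (SE 0.09) with an adjusted p of 1.44e-14, the smallest of the 10 genes. Of 783 tested genes whose base mean was within a factor of 2 of that of Nexn, 9.96% had a lower log2 fold change.

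The PDZ-LIM proteins bind alpha-actinin through the PDZ domain and kinases through the LIM domains, and with the authors' scaling the 3 among the 10 genes all fell. Of all tested genes 17.4% fell, and of the abundant ones, which include Ldb3 and Pdlim5, 42.1%. Among tested genes like each in base mean, 58.4% had a lower log2 fold change than Ldb3, 39.4% than Pdlim5 and 1.71% than Pdlim7. Ldb3 encodes the protein also called cypher or ZASP, which holds the disc together under load. Ldb3 (chr14:34526603-34588682) had implied means of 19214 normalized counts in GFP and 14769.5 in dnMKL1, and the authors' deposited table gave -0.38 (SE 0.08, adjusted p = 4.96e-06). Pdlim5 encodes ENH, a scaffold for protein kinase C. Pdlim5 (chr3:142239590-142395696) had implied means of 10871 and 7807, and the authors' deposited table gave -0.48 (SE 0.11, adjusted p = 7.06e-05). Pdlim7 encodes enigma, found in muscle and at actin fibres of other cells. Pdlim7 (chr13:55495795-55513676) had implied means of 521 and 287, and the authors' deposited table gave -0.86 (SE 0.13, adjusted p = 3.37e-09). It fell by 44.9%, the most among the 10 genes, at a level far under those of Ldb3 and Pdlim5. With equal summed totals in both groups the falls of Ldb3 and Pdlim5 no longer passed the threshold.

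The other 4 PDZ-LIM genes did not pass it with the authors' scaling. With equal summed totals 3 of the family's 7 genes, all among these 4, were higher and 1 (Pdlim7) was lower. Of all tested genes, 40.4% were higher and 6.60% lower with that scaling. The authors' deposited table gave 0.09 (SE 0.10) for Pdlim1, 0.97 (SE 0.44) for Pdlim2, -0.33 (SE 0.24) for Pdlim3 and 0.44 (SE 0.22) for Pdlim4. Their adjusted p-values in the authors' deposited table ran from 0.0735 for Pdlim2 to 0.565 for Pdlim1. In the family's summed level per kilobase, Ldb3 held 63.8% in GFP and 62.6% in dnMKL1, Pdlim5 24.8% and 22.8%, and Pdlim7 2.18% and 1.53%. Pdlim4 held 3.46% and 5.98%.

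Csrp3, Myoz2 and Nebl, all muscle genes of the Z-disc, did not pass the threshold with the authors' scaling. Csrp3 encodes muscle LIM protein, a partner of alpha-actinin that takes part in stretch sensing. Csrp3 (chr7:48830398-48848033) had implied means of 16337 normalized counts in GFP and 15439.6 in dnMKL1, and the authors' deposited table gave -0.08 (SE 0.10, adjusted p = 0.588). Its 95% interval was -0.27 to 0.11.

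Myoz2 encodes calsarcin-1, which binds alpha-actinin and the phosphatase calcineurin. Myoz2 (chr3:123006206-123035015) had implied means of 9925 and 10189 normalized counts, and the authors' deposited table gave 0.04 (SE 0.10, adjusted p = 0.821). Its 95% interval was -0.15 to 0.23. Nebl encodes nebulette, the cardiac relative of nebulin that links actin to the Z-disc. Nebl (chr2:17343909-17731464) had implied means of 2551 and 2631, and the authors' deposited table gave 0.04 (SE 0.14, adjusted p = 0.859). Its 95% interval was -0.23 to 0.32. A shift inside these intervals would have gone unseen.

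**Figure D2:**
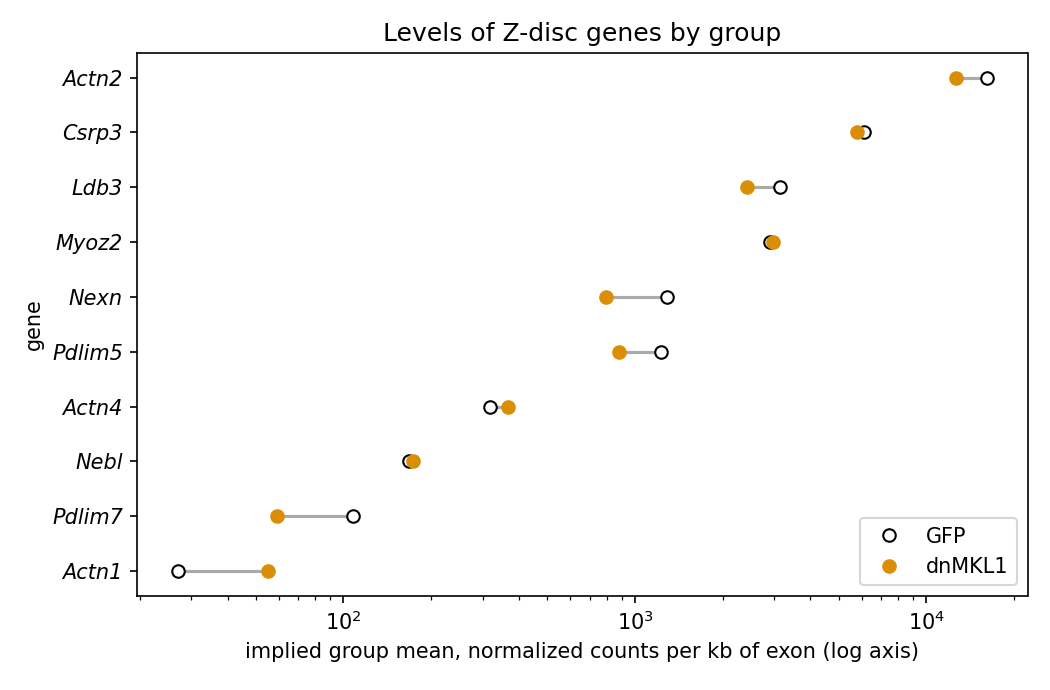
Implied group means of the 10 genes in normalized counts per kilobase of exon (horizontal log axis), open points for GFP and filled points for dnMKL1, with the genes ordered by their GFP level. Levels run from 27.0 for Actn1 to 16153 for Actn2 in GFP, and the largest ratio between groups is the rise of Actn1 to 54.9.

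To compare levels between genes, implied means were divided by the exon length of each gene, all annotated isoforms merged. In GFP, Actn2 came first at 16153 normalized counts per kilobase, then Csrp3 at 6117, Ldb3 at 3147, Myoz2 at 2899.55, Nexn at 1293 and Pdlim5 at 1225. Actn4 at 319, Nebl at 167, Pdlim7 at 107 and Actn1 at 27.0 followed. An approximate SD between libraries follows from each SE, with the same coefficient of variation of a gene applied to both groups. It is a model value, not an observed spread. It was 258 for Ldb3 and 303 for Myoz2 in GFP, and 120 for Nexn and 144 for Pdlim5 (all in normalized counts per kilobase). The SD ranges of each neighbouring pair overlapped. In dnMKL1 both pairs changed places. Myoz2 at 2977 ± 311 stood above Ldb3 at 2419 ± 199, and Pdlim5 at 879 ± 103 above Nexn at 793 ± 73.4 (same approximate SD). The ranges of the latter pair again overlapped. Genes were not tested against each other. Nebl has long merged exons (15235 bases), which lowers its value on this scale.

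The precision of the estimates differed between the genes. Ldb3 and Actn2 had nearly the same log2 fold change, and only that of Ldb3 passed the threshold. The SE of Ldb3 was 0.689 times the median SE of 154 tested genes within a factor of 2 in base mean, and that of Actn2 was 1.47 times the median of 29 such genes. Expressed as a modelled coefficient of variation between libraries, the SEs correspond to about 8.21% for Ldb3 and 18.8% for Actn2. Among the 140 genes whose base mean reached 10000, Actn2 had the 7th largest SE and Ldb3 the 134th. Nebl, like Actn2, had a wide SE for its level, 1.48 times the median of genes like it. Which libraries made Actn2 and Nebl variable cannot be read from the table.

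Highly expressed genes were lower in dnMKL1 more often than higher. Of the 140 genes at base means of 10000 and above, 5 rose (Mkl1 among them) and 99 fell, with a median log2 fold change of -0.60. The class holds 4 of the 10 genes. Counted from the lowest log2 fold change of the class, Ldb3 was 90th, Actn2 95th, Csrp3 117th and Myoz2 125th. All 4 lay above the class median. In the wider class of 2128 abundant genes, whose median was -0.15, Nexn was 203rd, Pdlim5 454th, Ldb3 582nd and Actn2 631st, counted the same way. Csrp3 was 1247th there, Myoz2 1515th, Nebl 1541st and Actn4 1800th. Of 279 tested genes like Pdlim5 in base mean, 39.4% had a lower value. Pdlim7 lay low for its level: only 1.71% of 4320 tested genes like it in base mean had a lower value. For Actn1, 97.0% of 3978 such genes had a lower value.

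**Figure D3:**
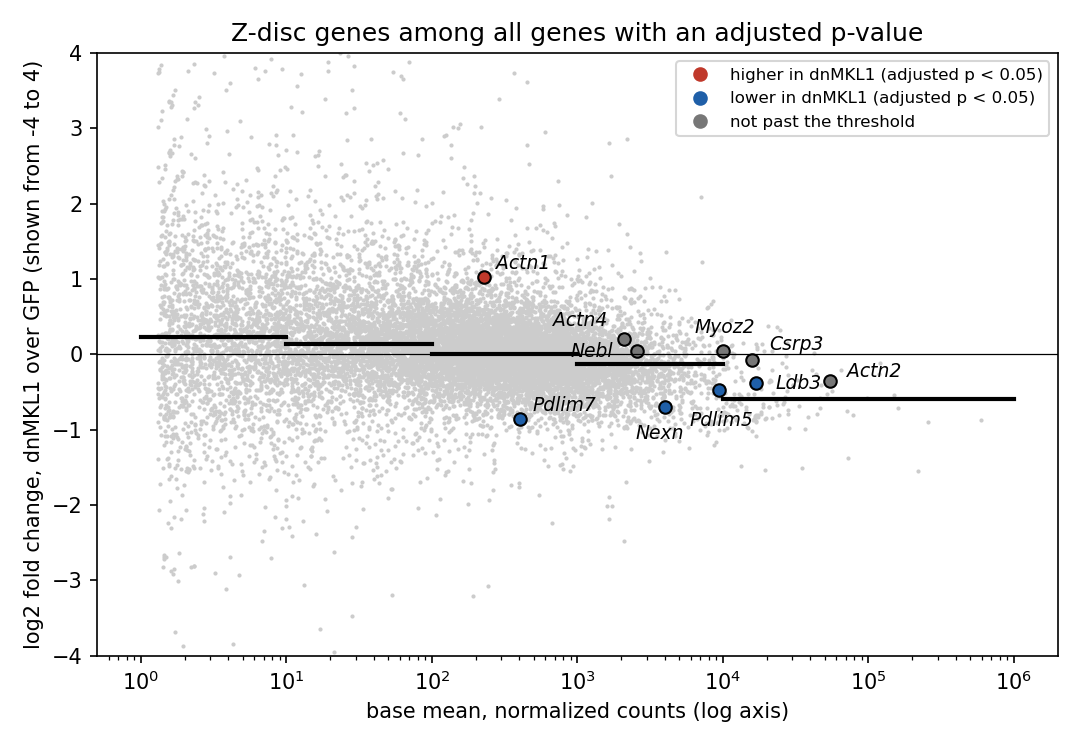
Log2 fold change (vertical axis, -4 to 4, leaving out 33 genes) against base mean (horizontal log axis) for all genes with an adjusted p-value in grey, with the 10 Z-disc genes as large points and black lines for the median of each class of base mean. The line drops to -0.60 in the highest class, where Ldb3, Actn2, Csrp3 and Myoz2 all lie above it.

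Thin and thick filament genes were compared with the Z-disc genes because they are built into the same sarcomere. Of 7 thin filament genes 6 fell and 0 rose, with a median log2 fold change of -0.58, while equal summed totals gave 4 lower and 1 higher and a median of -0.30. Of 9 genes of the thick filament and M-band 5 fell and 0 rose, with a median of -0.41, while equal summed totals gave 4 lower and 1 higher and a median of -0.12. Of all tested genes, 16.6% rose and 17.4% fell. Of the 140 at base means of 10000 and above, 5 rose (Mkl1 among them) and 99 fell. With equal summed totals 40.4% of all tested genes were higher and 6.60% lower. Actc1, the cardiac actin that alpha-actinin anchors, had -1.55 (SE 0.15) in the authors' deposited table. Myl3, a myosin light chain, had -1.38 (SE 0.12) in the authors' deposited table. The median of the 10 Z-disc genes was -0.22. These medians were not tested against each other, and their genes differ in level, with median base means of 55854 for the thin filament, 30171 for the thick filament and 6665 for the Z-disc genes.

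Focal adhesion genes were examined because Actn1, Actn4 and Pdlim7 also serve actin at adhesions, outside the sarcomere. Of 13 such genes, 3 rose, 2 fell and 8 did not pass the threshold, beside 34.1% of all tested genes called, with a median log2 fold change of 0.01. With equal summed totals 6 were higher and 0 lower, beside 40.4% and 6.60% of all tested genes, and the median was 0.30. Zyx had 0.87 (SE 0.12, adjusted p = 1.53e-11) in the authors' deposited table. It encodes a LIM protein that binds alpha-actinin at adhesions and stress fibres. Parva and Pxn, adaptors of integrin adhesions, had 0.72 (SE 0.10) and 0.49 (SE 0.11) in the authors' deposited table. The genes that fell were Tln2, the muscle talin, at -0.39 (SE 0.13) and Lims1, a partner of integrin-linked kinase, at -0.23 (SE 0.09) in the authors' deposited table. Neither passed the threshold with equal summed totals, Tln2 at -0.10 and Lims1 at 0.06.

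A list of 32 other Z-disc genes held 29 with an adjusted p-value, of which 4 rose, 8 fell and 17 did not pass the threshold, while equal summed totals gave 16 higher and 2 lower. Their median log2 fold change was 0.09. The count of 12 in 29 stands beside 34.1% of all tested genes. The counts with equal summed totals stand beside 40.4% higher and 6.60% lower. Csrp1, a LIM protein of smooth muscle, rose with a log2 fold change of 1.50 (SE 0.16, adjusted p = 1.88e-19) in the authors' deposited table, and Zyx rose as given above. Ankrd1, a stretch-responsive partner of titin, rose by 0.45 (SE 0.18, adjusted p = 0.0393) and Capza1, a subunit of the capping protein of actin, by 0.44 (SE 0.18, adjusted p = 0.0436) in the authors' deposited table.

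Among those that fell, Myot, or myotilin, had -1.29 (SE 0.22, adjusted p = 5.81e-08) in the authors' deposited table. Smpx, a small protein of muscle costameres, had -0.49 (SE 0.10), and Synpo2, an actin-bundling protein, had -0.53 (SE 0.12) in the authors' deposited table. Capzb, the partner subunit of Capza1, had -0.54 (SE 0.12) in the authors' deposited table. Capza2, the more abundant alpha subunit, also fell, with -0.21 (SE 0.06, adjusted p = 0.00227), and the base means were 327 for Capza1, 5131 for Capza2 and 3912 for Capzb in the authors' deposited table. With equal summed totals Capzb (-0.25), Capza2 (0.07), Smpx (-0.21) and Synpo2 (-0.24) did not pass the threshold, and Myot (-1.01) still did. Tcap, which caps titin in the Z-disc, had 0.15 (SE 0.10, adjusted p = 0.263) in the authors' deposited table.

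Csrp1 and Csrp2 are the smooth muscle relatives of Csrp3, and they moved apart. Csrp2 fell, with -0.72 (SE 0.17) in the authors' deposited table. Per kilobase, Csrp1 went from 1.92% of the family's summed level in GFP to 5.60% in dnMKL1, Csrp2 from 4.18% to 2.61%, and Csrp3 from 93.9% to 91.8%. In Csrp1 as in Actn1, the low-abundance relative rose while the cardiac gene did not pass the threshold. Fibroblast and mural markers stood as given beside Actn1, and their part in the rise of Csrp1 was not tested.

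In the nebulin family, 0 of 4 genes were called by the Wald test with the authors' scaling, beside 34.1% of all tested genes. None had an unadjusted p under 0.05. Equal summed totals gave 3 higher (Nebl, Nrap and Lasp1) and 0 lower, beside 40.4% and 6.60% of all tested genes. Nrap, which serves in the assembly of myofibrils, had 0.11 (SE 0.12), Lasp1, a non-muscle actin-binding protein, 0.47 (SE 0.29) and Neb 0.01 (SE 0.31) in the authors' deposited table. Per kilobase Nrap held 87.2% of the family's level in GFP and 87.3% in dnMKL1, and Nebl 11.3% and 10.8%. Among calsarcins, Myoz2 held 99.9% of the level in both groups. Myoz1 had a base mean of 6.14 in the authors' deposited table and was not called, and Myoz3 was lower still.

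Calcineurin signalling was examined because calsarcin-1 ties this phosphatase to the Z-disc. Of 10 genes, 1 rose, 3 fell and 6 did not pass the threshold, beside 34.1% of all tested genes called, with a median log2 fold change of -0.03. With equal summed totals 4 were higher and 2 lower, beside 40.4% and 6.60% of all tested genes, and the median was 0.26. The catalytic subunits Ppp3cb and Ppp3cc had -0.61 (SE 0.09) and -0.55 (SE 0.09), and the regulatory subunit Ppp3r1 had -0.29 (SE 0.10) in the authors' deposited table. Rcan1, which encodes an inhibitor of calcineurin, had 0.61 (SE 0.21, adjusted p = 0.0134) in the authors' deposited table. Ppp3ca, another catalytic subunit, had 0.01 (SE 0.09) in the authors' deposited table and was not called. Equal summed totals took the call from Ppp3r1 (-0.0063) and made Ppp3ca (0.30) higher.

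The calls of some of the 10 genes, and the direction of Csrp3, depended on how the libraries were scaled. Implied means summed to less in dnMKL1 than in GFP, by 0.29 on the log2 scale. Setting both sums equal adds 0.29 to every log2 fold change and calls 47.0% of tested genes, 40.4% higher and 6.60% lower. Of the 10 genes, 4 were then higher and 2 lower, against 1 and 4 with the authors' size factors. Actn1 rose (1.31) and Nexn (-0.42) and Pdlim7 (-0.57) fell under both. Ldb3 (-0.09, adjusted p = 0.330) and Pdlim5 (-0.19, adjusted p = 0.139) no longer passed the threshold. Actn4 (0.49), Myoz2 (0.33) and Nebl (0.33) passed it as higher, and Csrp3 turned to 0.21 without passing. Centring instead on the median of abundant genes adds 0.15 and calls 37.0% of tested genes, 26.6% higher and 10.4% lower. Of the 10 genes, 2 were then higher and 4 lower. Ldb3 (-0.23), Pdlim5 (-0.33), Nexn (-0.56) and Pdlim7 (-0.71) then still fell, and Actn4 (0.35, adjusted p = 0.00877) rose. Which scaling is closer to the amount of RNA per cell was not tested.

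**Figure D4:**
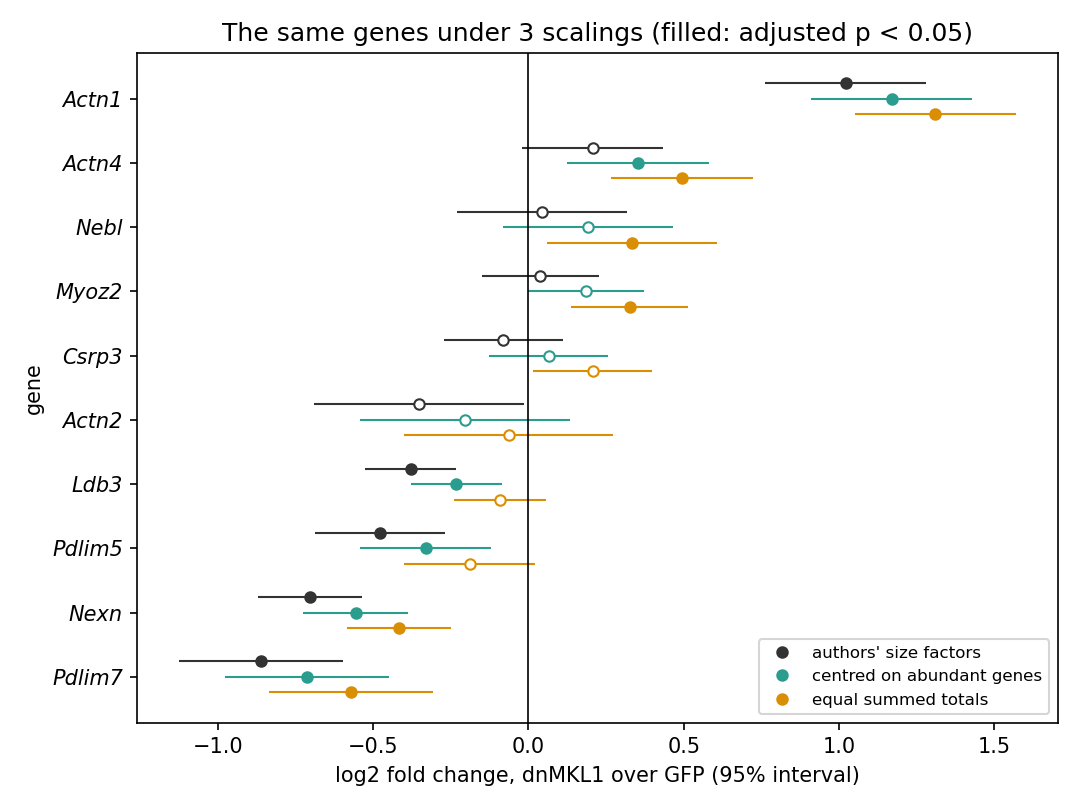
Log2 fold change (horizontal axis) of the 10 genes (vertical axis) with the authors' size factors, after centring on abundant genes (base means from 1000 up), and with equal summed totals, with 95% intervals and filled points where the adjusted p-value was under 0.05. Actn1, Nexn and Pdlim7 have filled points under all 3 scalings on one side of 0, whereas Csrp3 crosses from -0.08 to 0.21.

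Overlapping genes could share reads with some of the 10, since the use of strand in counting is not given in the sources used here. In the GENCODE annotation, exons of Actn1 overlap the antisense genes Gm47767 and Gm47766, and exons of Actn4 overlap Capn12 on the opposite strand, whose base mean was 3.89 in the authors' deposited table. Exons of Nexn and Pdlim7 overlap Gm43185 and Mir6945 on their own strand. No exons of other genes overlapped those of Actn2, Csrp3, Ldb3, Myoz2, Nebl or Pdlim5.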

How the data were processed

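RNA was measured in sorted cardiomyocytes of 5 GFP and 5 dnMKL1 libraries, and groups came from the sample titles. Per the labels' protocols, a SMART-Seq kit made cDNA from 10 ng of total RNA with 8 PCR cycles, and Nextera XT libraries were built from 500 pg of it. Per the submitters' processing notes, the tools were CASAVA 1.8, STAR 2.5.3a and featureCounts of Subread 1.5.2, with build mm10. Annotation and strand use are not given in the sources used here.

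The file analysed is the authors' comparison, and per the file headers its columns are those DESeq2 writes. The deposited base mean is a signal in normalized counts, that is counts divided by the authors' size factors and averaged over 10 libraries. Fold change and SE were deposited on the log2 scale. The statistic was deposited as a score equal to the fold change over its SE (largest gap 1.14e-05). The deposited p-value is its two-sided Wald p-value, and its deposited adjusted form matched a Benjamini-Hochberg recalculation (largest gap 1.44e-07). Since there are no values per library, the authors' adjusted p-value under 0.05 is the test.

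Implied means treat the base mean as midway between the means of 2 equally sized groups. Intervals are the log2 fold change plus or minus the normal 95% range of the SE. The coefficient of variation between libraries solves the negative binomial variance for the SE, with equal size factors, and is approximate. Size factors came from the base means of genes that 1 library alone detected, with 1 read. Totals are size factors times the summed implied means of a group, and cannot be matched to replicate numbers. Reads carry no molecular identifiers, so depth describes counting error only.

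Exon lengths and positions came from GENCODE M21 on GRCm38. Promoter windows came from RefSeq on GRCm38.p6. The scripts ran in Python 3.11.15 with numpy 2.4.6, pandas 2.3.3 and scipy 1.17.1, and recalculated calls were tested on simulated data. The genes and lists were chosen with earlier results of these data known. From each list up to 4 called genes per direction with the smallest adjusted p-values are named, and every gene of the 5 families may be. Tcap, Ppp3ca, Capza2, the named cell type markers and the genes with a CArG box were named outside that rule, after their values were seen. Adgre1 was matched through its older symbol. Alternatives for the threshold, the adjustment, low values, scaling and the size of change were tried.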

Additional observations from a re-analysis of the deposited data

How the results depend on the processing

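No paired analysis was possible because the table holds no values per library, and for the same reason fits that leave out 1 library or test counts were not run, so whether 1 library decides a value is unknown. All 10 Z-disc genes kept direction and call with a threshold of 0.01 or 0.1, adjustment over every p-value, a minimum base mean of 10 or of 100, and centring on genes whose base mean reached 10. Centring on abundant genes (from 1000 up) reversed Csrp3 to 0.066 and equal summed totals reversed it to 0.21, in neither case past the threshold, by the shift itself. Requiring an absolute log2 fold change of 0.5 or more left 3 of the 10 genes, 6 of the other Z-disc genes and 2735 of all genes, and one of 1 left 1, 2 and 942, since fewer genes can pass. Among the other Z-disc genes, 4 higher and 8 lower became 16 and 2 with equal summed totals and 13 and 5 when centred on abundant genes. All genes went from 2340 higher and 2452 lower to 5685 and 927, and to 3737 and 1463. Depth limits the genes with few reads, such as Actn3 and Myoz3, and far less those with high counts.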

Other observations

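The CArG box was also looked for in other Z-disc genes. Promoter windows were found for 23 of the 32, and Fhl2, Lmcd1 and Vcl held a match. In the authors' deposited table Fhl2, a LIM protein that binds titin, had a log2 fold change of 0.02 (SE 0.09), Lmcd1, a LIM cofactor of transcription, -0.28 (SE 0.13), and Vcl, or vinculin, which links actin to adhesions, -0.16 (SE 0.11). Of the 5 Z-disc genes with a match in a window, 1 (Ldb3) was called, beside 34.1% of all tested genes. With equal summed totals Ldb3 was not called, and Nebl (0.33) and Fhl2 (0.31) were higher. A match is no evidence of binding, and SRF sites outside these windows were not searched.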
